A study of Mus musculus with 10 samples.

Results

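The insulin-like growth factor (IGF) system was examined in the left ventricle (LV) through 10 genes. With earlier results of these data known, these genes were chosen by name from the 55401 genes of the deposited tables. They are the ligand Igf1, its receptor Igf1r, the 6 IGF binding protein genes Igfbp2 to Igfbp7, and Igf2bp2 and Igf2bp3. The last pair encode proteins that bind RNA, among it Igf2 mRNA, and do not bind IGF, so they are described separately. LV tissue came from wild-type mice that underwent neonatal ascending aortic constriction (nAAC), a surgical model of pressure overload set up in newborns, or a sham operation, and was taken at 4 weeks of age, with 5 mice per group and 1 library per mouse. The mice were breast fed and housed with their mothers, they carried no transgene, and the labels do not give their sex. The paper names C57BL/6 mice and states that females and males were allotted to groups at random. The comparison asks how transcript levels in the young, pressure-overloaded LV differ from those of operated controls.

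IGF1 is a secreted peptide that acts on the receptor tyrosine kinase IGF1R, which signals through insulin receptor substrate adaptors, PI3K and AKT, and in the heart it is known for promoting physiological growth and survival of cardiomyocytes. IGF binding proteins carry IGFs in blood and tissue, and can withhold the ligand from the receptor or release it when a protease cuts them. IGFBP7 differs from the other members in binding IGFs only weakly, and it is abundant in vessels and extracellular matrix.

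Levels are FPKM, fragments scaled for the length of the transcript and the depth of the library. Tests were limma on log2(FPKM + 1), and p values were adjusted by Benjamini-Hochberg over the 11867 genes whose mean over the 10 libraries was 1 FPKM or more. A differentially expressed gene (DEG) was defined by an adjusted p below 0.05 together with a log2 FC beyond 1 in either direction. Library depth, estimated from the ratio of FPKM to coverage, was 4.86 to 6.82 Gb in nAAC and 5.06 to 5.24 Gb in sham, and between 11182 and 12455 genes per library reached 1 FPKM. Transcripts of the mitochondrial genome took 36.1 ± 2.60% of TPM in nAAC and 43.4 ± 7.05% in sham (SD, n = 5), and the median log2 FC of all tested genes was 0.22 rather than 0. Changes are therefore also given after median-ratio scaling, which removes that shift. Sham replicate 4 stood apart, with 666 tested genes more than 1 log2 unit away from the mean of its group without it, against 67 to 137 genes for the remaining sham mice and 34 to 162 for the nAAC mice. All 12 cardiomyocyte markers were above the filter, with summed FPKM of 14867 to 23111 in nAAC and 17087 to 35614 in sham.

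Of the 10 members, 7 had a mean of 1 FPKM or more in each group, and the counts that follow are over these 7, set beside the 11238 genes of the same kind. The members were chosen with earlier results of these data known, so the shares set beside them are no test of the members as a set. Igf2, which was lower in nAAC (log2 FC -1.82), is not a member and is described further on. Of the 7, 6 were higher in nAAC at an adjusted p below 0.05 (Igf1, Igf1r, Igfbp3, Igfbp4, Igfbp6 and Igfbp7), against 25.4% of those genes, and none was lower. Igf1, Igfbp6 and Igfbp7 were DEGs, against 4.19% of the genes that were DEGs higher in nAAC. In 5 (all of the 6 except Igfbp4) the nAAC mice were all above the sham mice, against 17.3%. After median-ratio scaling, 4 were higher (Igf1, Igfbp3, Igfbp6 and Igfbp7), against 11.5%, while Igfbp6 and Igfbp7 were DEGs, against 2.41%, and had groups that did not overlap, against 9.17%. Igfbp2 and Igf2bp2 averaged under 1 FPKM in sham and entered the test through their higher nAAC values, so they are left out of these counts, and Igf2bp3 was under the filter on low values.

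**Figure D1:**
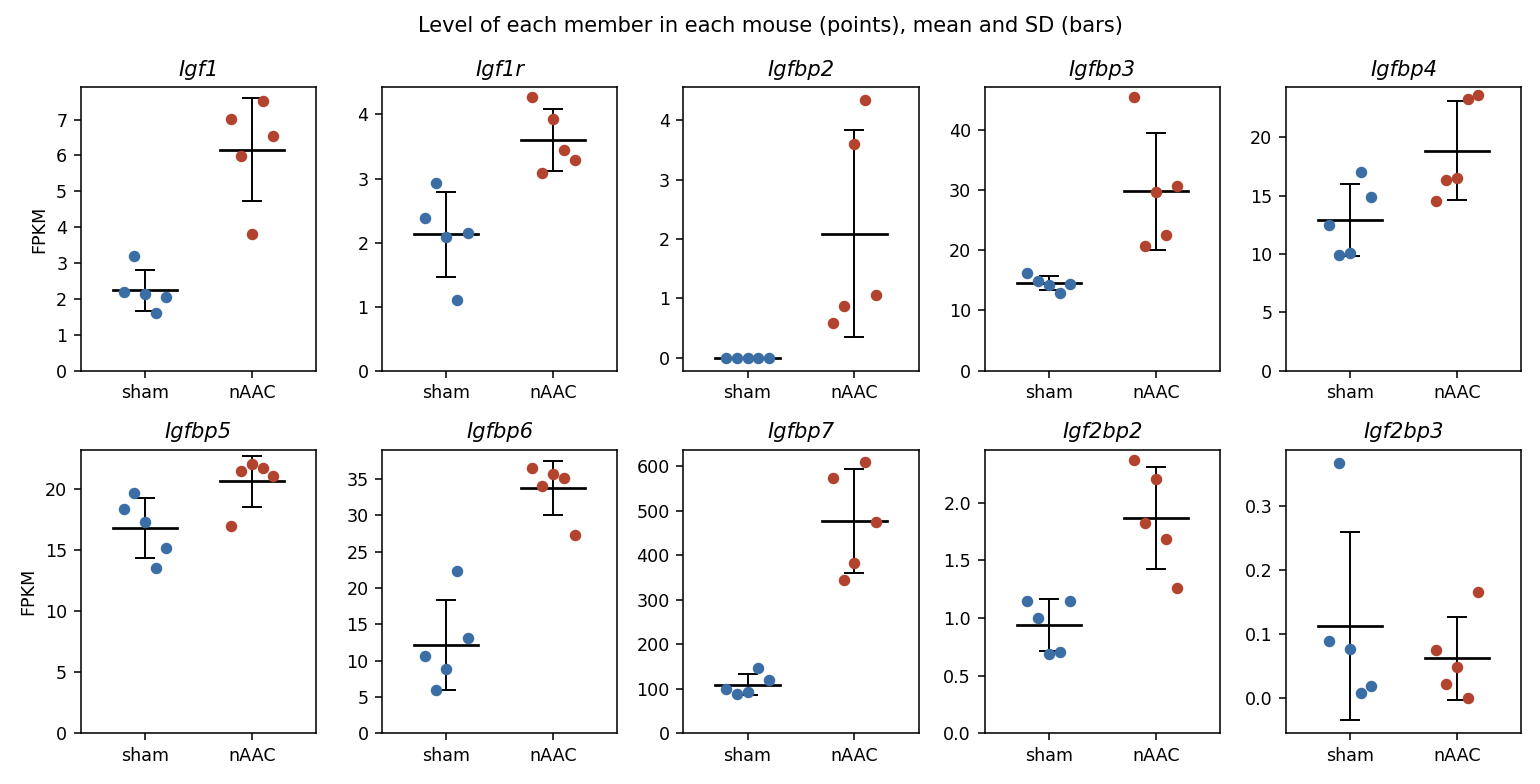
FPKM of each of the 10 members in the 5 nAAC and 5 sham mice, with 1 point per mouse and bars for the mean and SD; each panel has its own axis, and the lower SD bar of Igf2bp3 runs below 0. The groups do not overlap for Igf1, Igf1r, Igfbp3, Igfbp6, Igfbp7 and Igf2bp2, Igfbp2 is at 0 in every sham mouse, and Igf2bp3 reaches at most 0.367 FPKM.

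The study concerns the aryl hydrocarbon receptor (AHR), a ligand-activated transcription factor that binds DNA at elements with the core GCGTG, so the stretch upstream of the start site was searched for this core in the members. The 250 bases upstream of each RefSeq start (GRCm38) were read for GCGTG or its reverse complement CACGC. The windows of 6 of the 10 genes held a match (Igf1, Igf1r, Igfbp2, Igfbp3, Igfbp7 and Igf2bp2). Igfbp2 has 2 windows, so this was 6 of 11 windows, against 28.1% of 32817 RefSeq promoter windows of the same length. That background was not matched for GC content. The Igf1 window (chr10:87860861-87861110) lies inside the gene, with all 250 of its bases in GENCODE exons, so it is not sequence upstream of the whole gene. The windows of the 3 most abundant binding protein genes in nAAC are given because they differ in this respect, with 1, 2 and no matches, 5′ to 3′ on the strand of the gene, with the core in capitals. The Igfbp7 window (chr5:77408046-77408295, minus strand) had a match that starts at position -187 from the start site, and Igfbp3 (chr11:7213924-7214173, minus strand) had matches at -188 and -55. The Igfbp6 window (chr15:102143936-102144185, plus strand) held none.
Igfbp7: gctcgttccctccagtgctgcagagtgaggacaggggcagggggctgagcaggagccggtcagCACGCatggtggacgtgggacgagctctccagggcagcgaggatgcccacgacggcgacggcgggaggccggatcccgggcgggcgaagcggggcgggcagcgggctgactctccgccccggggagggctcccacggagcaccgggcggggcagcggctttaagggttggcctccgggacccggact
Igfbp3: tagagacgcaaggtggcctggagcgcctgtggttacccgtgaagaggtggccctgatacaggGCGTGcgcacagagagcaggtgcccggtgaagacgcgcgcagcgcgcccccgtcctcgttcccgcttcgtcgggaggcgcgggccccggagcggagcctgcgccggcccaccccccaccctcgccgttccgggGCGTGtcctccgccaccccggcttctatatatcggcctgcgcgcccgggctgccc
Igfbp6: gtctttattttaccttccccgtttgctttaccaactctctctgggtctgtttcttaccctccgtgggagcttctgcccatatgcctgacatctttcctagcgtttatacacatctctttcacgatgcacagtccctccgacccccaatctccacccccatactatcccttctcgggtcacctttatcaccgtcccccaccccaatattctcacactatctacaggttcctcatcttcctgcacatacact
The windows also differed in base composition, with a GC content of 74% for Igfbp7, 73.2% for Igfbp3 and 49.6% for Igfbp6. An AP-1 motif, TGANTCA, was present in windows of Igf1 and Igfbp2, against 6.75% of all windows, and the TEAD motif GGAATG or its reverse complement CATTCC was present in that of Igfbp5, against 12.6%. These letter matches describe the windows alone, since no binding data were analysed here.

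Igf1 (ENSMUSG00000020053, chr10:87858265-87937042, GRCm38, plus strand) encodes the ligand of the receptor. It measured 7.001, 5.97, 3.80, 7.51 and 6.53 FPKM in nAAC replicates 1 to 5, and 2.19, 3.19, 2.14, 1.62 and 2.05 FPKM in sham replicates 1 to 5. The lowest nAAC mouse, replicate 3, was above the highest sham mouse, replicate 2. The means were 6.16 ± 1.44 and 2.24 ± 0.580 FPKM (SD, n = 5), 2.76-fold higher in nAAC, with a log2 FC of 1.14 (SE 0.17, adjusted p = 0.000235, limma). The exact two-sided permutation test gave p = 0.0079, the smallest that 5 against 5 mice allow. With median-ratio scaling the log2 FC was 0.92 (adjusted p = 0.00152), under the DEG threshold, and the groups overlapped.

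Igf1r (ENSMUSG00000005533, chr7:67952827-68233668, plus strand), the receptor, rose less. It measured 4.27, 3.08, 3.93, 3.44 and 3.30 FPKM in nAAC and 2.38, 2.92, 2.09, 1.10 and 2.15 FPKM in sham. The groups did not overlap, and sham replicate 4 was again the lowest mouse. The log2 FC was 0.58 (SE 0.15, adjusted p = 0.0121, limma; exact permutation p = 0.0079), and 0.37 with median-ratio scaling (adjusted p = 0.138), which no longer passed. The ratio of Igf1 to Igf1r was 1.74 ± 0.473 in nAAC and 1.09 ± 0.223 in sham (SD, n = 5), and it overlapped between groups because nAAC replicate 3, at 0.968, fell among the sham mice.

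Igfbp7 (ENSMUSG00000036256, chr5:77349240-77408041, minus strand) was the most abundant member in both groups and had the largest log2 FC of the 7 members that averaged 1 FPKM or more in each group. It measured 574.1, 343.9, 382.1, 610.6 and 473.7 FPKM in nAAC and 98.7, 89.1, 93.3, 145.8 and 119.5 FPKM in sham. The lowest nAAC mouse was above the highest sham mouse, replicate 4, by a wide margin. The means were 476.9 ± 116.2 and 109.3 ± 23.5 FPKM (SD, n = 5), 4.36-fold higher in nAAC, with a log2 FC of 2.10 (SE 0.20, adjusted p = 5.92e-06, limma; exact permutation p = 0.0079). Igfbp7 ranked 76 of 11867 genes by log2 FC, and by mean FPKM it moved from rank 389 of all genes in sham to 102 in nAAC. The log2 FC was 1.83 with median-ratio scaling and 2.21 without sham replicate 4. Its locus overlaps Polr2b on the opposite strand, which had a mean of 9.51 FPKM, and whether counting used strand is not given in the sources used here.

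Igfbp6 (ENSMUSG00000023046, chr15:102144362-102149511, plus strand), whose product prefers IGF2 over IGF1, had the next largest log2 FC of those 7 members. It measured 36.5, 34.0, 35.6, 35.1 and 27.3 FPKM in nAAC and 10.7, 6.01, 8.91, 22.3 and 13.1 FPKM in sham. The nAAC mice lay close together apart from replicate 5, and sham replicate 4 was the sham mouse nearest to them. The means were 33.7 ± 3.69 and 12.2 ± 6.20 FPKM (SD, n = 5), with a log2 FC of 1.51 (SE 0.25, adjusted p = 0.000629, limma; exact permutation p = 0.0079). The log2 FC was 1.74 without sham replicate 4 and 1.24 with median-ratio scaling, and the groups did not overlap on either scale. In sham, Igfbp6 was the lowest of the 5 detected binding proteins by mean, and in nAAC it was second to Igfbp7, although its range overlapped that of Igfbp3 in both groups.

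Igfbp3 (ENSMUSG00000020427, chr11:7206086-7213923, minus strand) encodes the main carrier of IGFs in blood. It measured 45.4, 20.7, 29.6, 22.6 and 30.6 FPKM in nAAC and 16.2, 14.9, 14.3, 12.9 and 14.3 FPKM in sham. The sham mice were tightly grouped, whereas nAAC spread widely from replicate 2 up to replicate 1, and the groups did not overlap. The means were 29.8 ± 9.73 and 14.5 ± 1.20 FPKM (SD, n = 5), with a log2 FC of 0.94 (SE 0.18, adjusted p = 0.00180, limma; exact permutation p = 0.0079), just under the DEG threshold, and 0.67 with median-ratio scaling (adjusted p = 0.0294). Without nAAC replicate 2 or 4 it passed that threshold, with a log2 FC of up to 1.05.

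Igfbp2 (ENSMUSG00000039323, chr1:72824503-72852474, plus strand), a binding protein abundant in fetal tissues, was listed at 0 in all 5 sham mice. In nAAC it measured 0.590, 0.877, 3.59, 4.34 and 1.05 FPKM, so replicates 3 and 4 stood well above the other three. Igfbp2 passed the filter on low values through the nAAC mice alone, so its levels are given as a description with no p value. Its log2 FC depends on the pseudocount, at 1.45 with 1 and 4.06 with 0.1, and no fold is given against 0. Its read support was thin, with a mean coverage of 0.555 reads per base in nAAC, and its FPKM per unit of coverage was 19.2 to 19.5 times the most frequent value among genes. With coverage over estimated depth in place of FPKM the log2 FC was 0.14, on a scale where its values lie far below the pseudocount of 1.

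Igfbp5 (ENSMUSG00000026185, chr1:72857932-72874884, minus strand), a matrix-associated binding protein, lies beside Igfbp2 on chromosome 1 and is transcribed toward it, but did not show the same pattern. It measured 16.9, 21.4, 22.02, 21.7 and 21.1 FPKM in nAAC and 18.4, 19.7, 17.3, 13.5 and 15.2 FPKM in sham. Of the nAAC mice, 4 were above every sham mouse, and replicate 1 lay among the sham values. The log2 FC was 0.29 (SE 0.13, adjusted p = 0.104, limma; exact permutation p = 0.0397), near the median of all genes, and 0.02 with median-ratio scaling.

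Igfbp4 (ENSMUSG00000017493, chr11:99041244-99054392, plus strand), an inhibitory binding protein that the protease PAPP-A cleaves, measured 14.6, 16.4, 16.5, 23.3 and 23.6 FPKM in nAAC and 12.5, 9.94, 10.1, 17.0 and 14.9 FPKM in sham. Only nAAC replicates 4 and 5 were above the highest sham mouse, replicate 4. The log2 FC of 0.52 (SE 0.18) had an adjusted p of 0.0420 (limma), the exact permutation test gave p = 0.0556, and with median-ratio scaling the log2 FC was 0.26 (adjusted p = 0.224), so the call was lost. It was also lost when any of nAAC replicates 2 to 5 or sham replicates 1 to 3 was left out (adjusted p of 0.0514 to 0.109, limma). The protease gene Pappa was below 1 FPKM in all libraries.

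**Figure D2:**
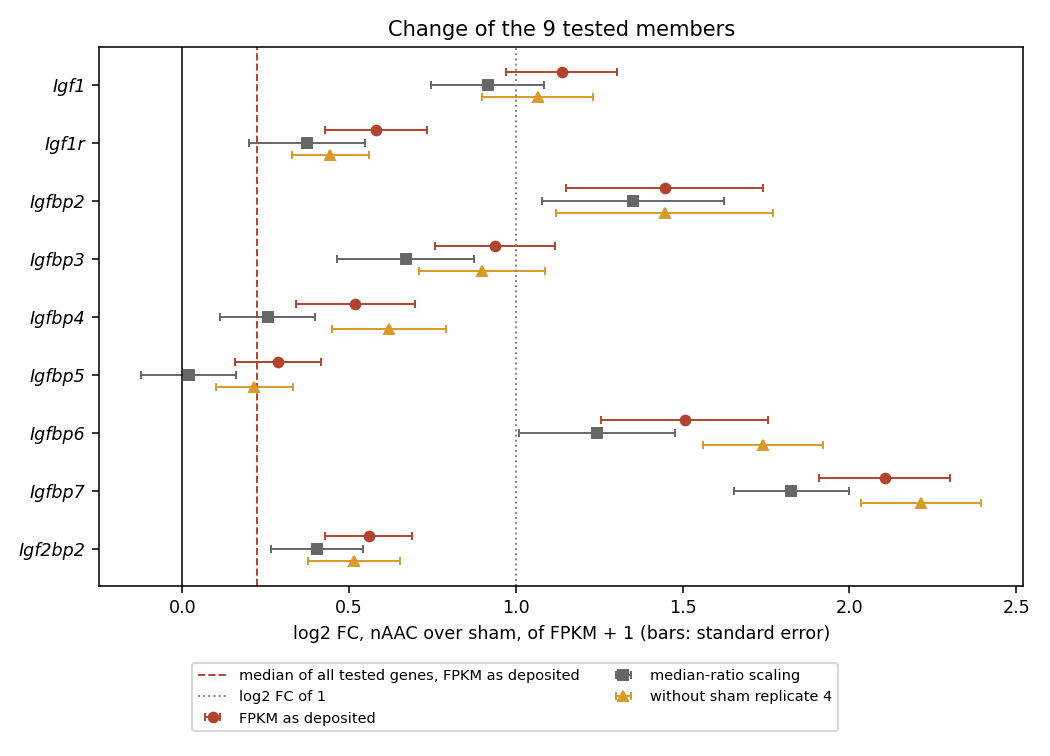
Log2 FC of FPKM + 1, nAAC over sham, of the 9 tested members, with SE bars, for FPKM as deposited, after median-ratio scaling and without sham replicate 4; lines mark 0, the median of all tested genes as deposited (0.22) and a log2 FC of 1. Igfbp7 and Igfbp6 stay above 1 in all 3 fits, as does Igfbp2, which is at 0 in all sham mice, and Igfbp5 is near 0 after scaling.

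The mix of the 6 binding protein transcripts within a library does not depend on scaling between libraries. Summed FPKM of the 6 genes was 582.0 ± 121.7 in nAAC and 165.7 ± 29.4 in sham, and without Igfbp7 it was 105.1 ± 7.54 and 56.4 ± 6.29 (SD, n = 5), with no overlap on either sum. Igfbp7 made up 81.5 ± 3.03% of the sum in nAAC (78.1 to 85.1%) and 65.6 ± 2.49% in sham (63.1 to 68.9%), again without overlap. Igfbp5 took 3.71 ± 1.01% in nAAC against 10.6 ± 3.06% in sham, and Igfbp4 took 3.31 ± 0.747% against 7.72 ± 0.615%, both without overlap, although the FPKM of neither gene was lower in nAAC. The shares of Igfbp3 (5.17 ± 1.33% and 9.04 ± 1.92%) and Igfbp6 (5.998 ± 1.42% and 7.05 ± 2.27%) overlapped between groups. The sum relative to Igf1 was 96.8 ± 20.3 in nAAC and 80.0 ± 32.2 in sham, and without Igfbp7 it was 18.1 ± 5.73 and 26.9 ± 8.97 (SD, n = 5), so the order of the means turned, with overlapping ranges on both. These are descriptions with no test. FPKM per unit of coverage was at the most frequent value among genes for Igfbp5 and Igfbp6, 1.06 to 1.08 times that value for Igfbp7, 1.29 to 1.30 times for Igfbp3 and 2.58 to 2.63 times for Igfbp4, so the share of Igfbp4 is lower when computed from coverage, at 1.4% in nAAC and 3.38% in sham. For Igf1 it was 1.94 to 2.09 times that value and for Igf1r 2.93 to 3.09 times, and the ratios to these genes are of FPKM.

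**Figure D3:**
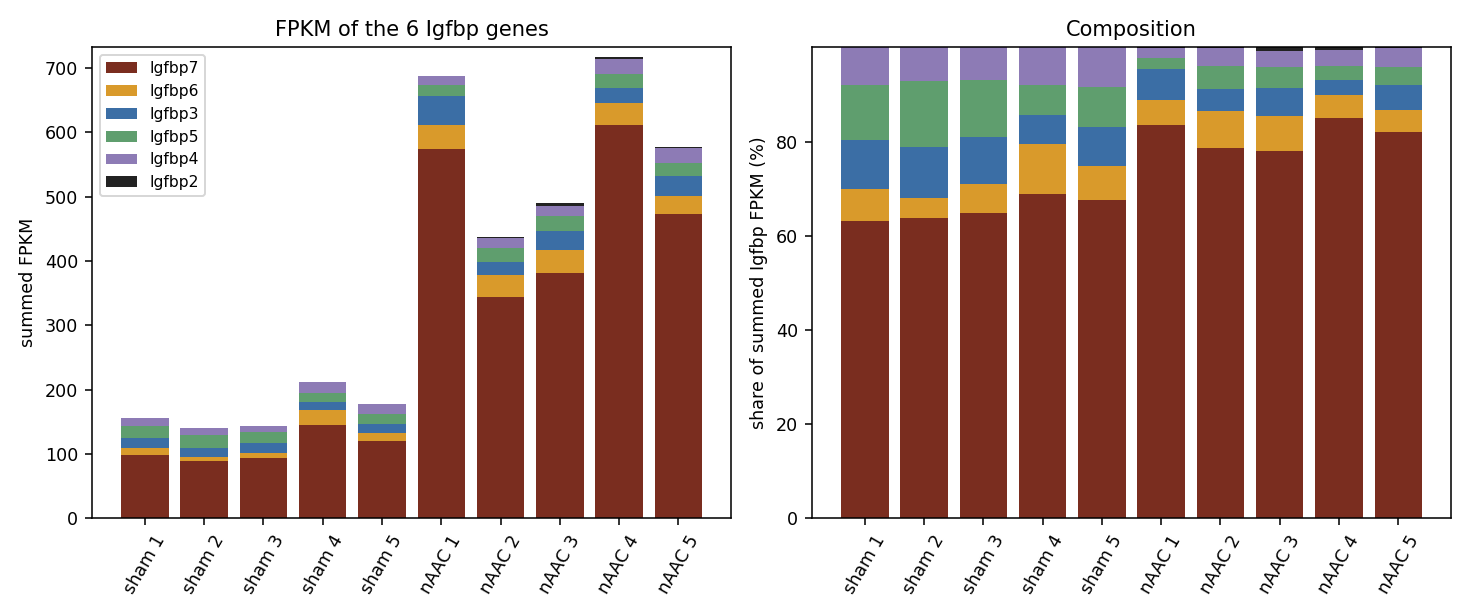
Stacked bars for each of the 10 libraries, with the FPKM of the 6 Igfbp members on the left and their shares of the summed FPKM, in percent, on the right. The sum is higher in every nAAC library, and Igfbp7 takes 78.1 to 85.1% of it there and 63.1 to 68.9% in sham.

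Igf2bp2 (ENSMUSG00000033581, chr16:22059009-22163299, minus strand) and Igf2bp3 (ENSMUSG00000029814, chr6:49085223-49214957, minus strand) belong to a family of mRNA-binding proteins that are high in the fetus. Igf2bp2 measured 2.38, 1.82, 2.21, 1.68 and 1.26 FPKM in nAAC and 1.15, 1.005, 0.692, 0.708 and 1.15 FPKM in sham. The groups did not overlap, although nAAC replicate 5 came close to the highest sham mice, and the sham mean of 0.940 ± 0.227 FPKM (SD, n = 5) was under the filter level of 1. Igf2bp2 passed the filter through its higher nAAC values, so its change is given as a description with no p value. The log2 FC was 0.56 (SE 0.13), 0.40 with median-ratio scaling and 0.06 with coverage over estimated depth, where the pseudocount again exceeds the values. Its mean coverage was only 0.543 and 0.281 reads per base in nAAC and sham. Its FPKM per unit of coverage varied between libraries, from 13.9 to 21.3 times the most frequent value among genes. Igf2bp3 ranged from 0 to 0.166 FPKM in nAAC and from 0.00871 to 0.367 FPKM in sham, and was not tested across genes (exact permutation p = 0.611). The related Igf2bp1 was at most 0.00570 FPKM in any library.

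Among the other ligands, receptors and carriers of the pathway, 4 of 8 genes were tested, none rose and 1 fell, beside 27.1% of all tested genes higher and 4.6% lower. Igf2, the fetal ligand, measured 4.23 ± 2.19 FPKM in nAAC and 16.3 ± 2.49 FPKM in sham (SD, n = 5), a log2 FC of -1.82 (SE 0.25, adjusted p = 0.000155, limma), opposite in direction to Igf1. The IGF2 and insulin receptor genes Igf2r and Insr had log2 FCs of 0.32 and 0.25 and did not pass, and Igfbp1 was listed at 0 in all 10 libraries. The median log2 FC of the tested genes of this list was 0.28, against 0.22 for all genes.

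Of 10 genes for proteases that cut binding proteins and for their inhibitors, 6 were tested, 2 rose and 1 fell (median log2 FC 0.27). Of all tested genes, 27.1% were higher and 4.6% lower. Adam9, a membrane metalloprotease, rose with a log2 FC of 1.06 and the lysosomal protease gene Ctsd with 0.73, which lost its call after median-ratio scaling (0.45, adjusted p = 0.0703, limma), while Htra1, a secreted serine protease, fell by 0.40 at an adjusted p of 0.0499 (limma). After that scaling the log2 FC of Htra1 was -0.67 (adjusted p = 0.00113, limma). Of 7 genes of the growth hormone axis, which drives Igf1 transcription in liver, 1 rose and 1 fell (median 0.05), beside the same shares of all tested genes. After median-ratio scaling 1 rose and 2 fell, when Stat5a also passed, beside 13.2% and 12.1% of all tested genes. Socs3, a feedback inhibitor of cytokine receptors, was the gene that rose on both scales, with a log2 FC of 0.62 as deposited. It averaged 0.905 FPKM in sham and 1.94 FPKM in nAAC. Like Igf2bp2 it passed the filter through its higher nAAC values, so its rise is a description only. The growth hormone receptor gene Ghr had a log2 FC of -0.68, from 33.4 ± 5.42 FPKM in sham to 20.4 ± 1.90 FPKM in nAAC (SD, n = 5).

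Of 30 genes for adaptors and the PI3K-AKT pathway downstream of the receptor, 29 were tested, 7 rose, 2 fell and 20 did not pass, beside 27.1% of all tested genes higher and 4.6% lower, with a median log2 FC of 0.20 beside 0.22 for all genes. Among the genes that passed, the largest increase was that of Grb10, an adaptor that restrains the insulin and IGF1 receptors, at 0.71. Next among them were Irs2, a docking protein of those receptors, at 0.56, and Rptor, a subunit of mTORC1, at 0.55. Pik3r1, the regulatory subunit of PI3K, had a log2 FC of -0.83 and Grb14, another inhibitory adaptor, -0.61. No gene of this list was a DEG. After median-ratio scaling 1 gene of the list, Rptor, was higher and 3 were lower, beside 13.2% and 12.1% of all tested genes. In the list of LIN28 and HMGA fetal regulators, 4 of 6 genes were below 1 FPKM in all libraries, and neither of the other two passed (median 0.05). With median-ratio scaling the median log2 FC was 0.02 for the ligands, receptors and carriers, 0.04 for the proteases, -0.19 for the growth hormone axis, -0.01 for the adaptors and -0.18 for the last list, while Igf2 stayed lower at -2.06 and Ghr at -0.95.

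**Figure D4:**
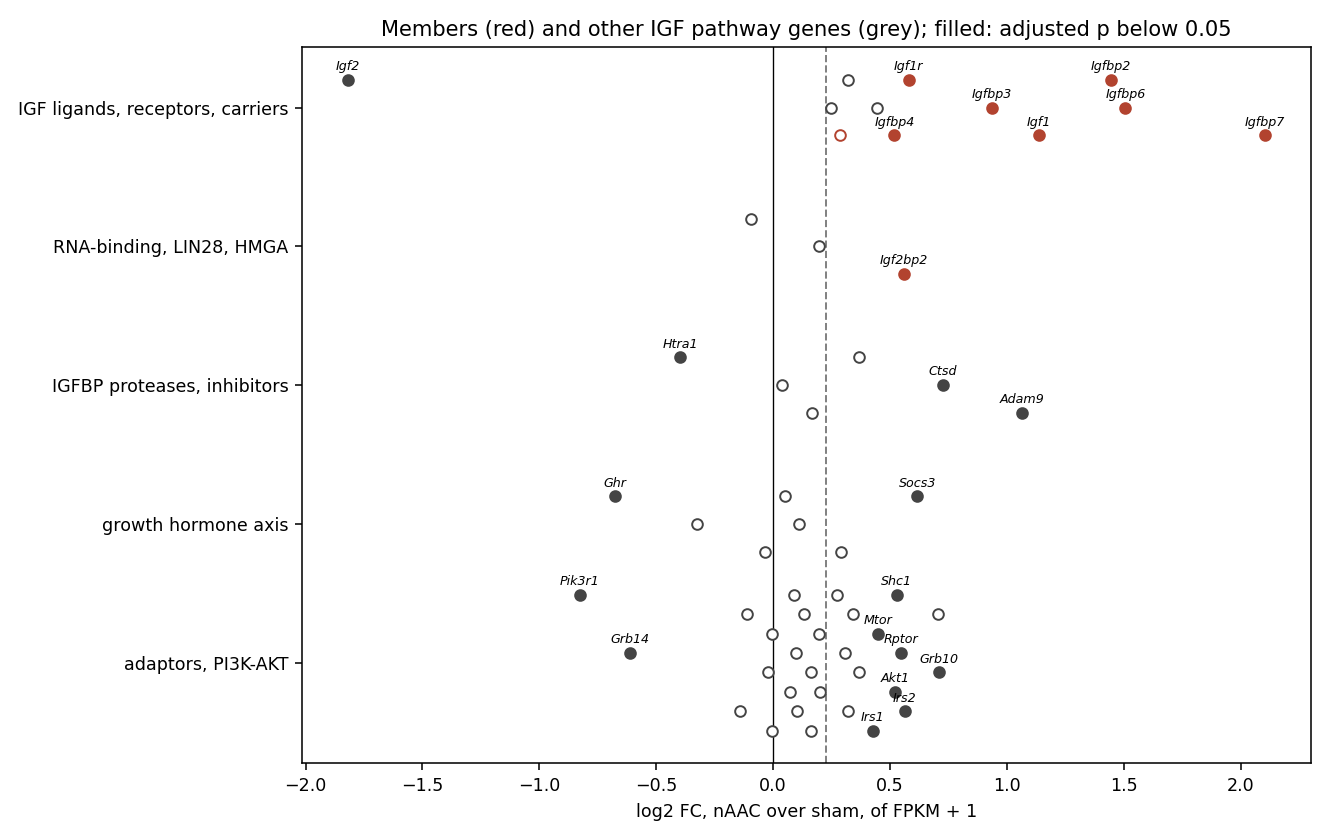
Log2 FC of FPKM + 1, nAAC over sham, of tested members (red) and of other tested genes of the IGF pathway (grey), 1 row per list with points set apart vertically for legibility; filled points have an adjusted p below 0.05, and the dashed line is the median of all tested genes (0.22). Igf2 lies at -1.82, on the opposite side from Igf1 at 1.14.

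In bulk tissue, fewer cells of a type and less RNA per cell cannot be told apart, so marker levels of other cell types are given beside the members, to be read against the 27.1% of all tested genes that were higher and the 4.6% that were lower. Of 10 fibroblast markers 6 were higher and 1 lower, with summed FPKM of 988 to 1449 in nAAC and 671 to 939 in sham. Of 8 mural markers 5 were higher (1011 to 1296 against 525 to 809), and neither sum overlapped. Most of the mural sum, which averaged 1149 FPKM in nAAC and 606.7 in sham, came from Des. Des measured 896.9 ± 154.6 FPKM in nAAC and 364.3 ± 131.0 in sham (SD, n = 5). The next most abundant mural marker, Rgs5, measured 162.6 and 163.2 FPKM. The sums overlapped for endothelial markers (2 of 10 higher, 256 to 404 against 219 to 318). They also overlapped for macrophage and leukocyte markers (3 of 10 higher with 9 tested, 164 to 325 against 107 to 227). Sums of mesothelial markers overlapped as well (1 of 8 higher with 6 tested, 9.03 to 28.8 against 7.09 to 12.6). That 1 mesothelial marker, Krt8, averaged 0.257 FPKM in sham and 2.08 FPKM in nAAC, so it passed the filter through its higher nAAC values. Of 12 cardiomyocyte markers 1 was higher and 2 were lower. Atrial marker sums spanned 7.69 to 237.4 FPKM in nAAC and 16.7 to 56.7 in sham, with 1 of 6 lower and 5 tested. None of 5 erythroid markers passed (3396 to 8802 against 2292 to 8661). No marker was at 0 in all libraries. After median-ratio scaling, with 13.2% of all tested genes higher and 12.1% lower, 3 fibroblast markers were higher and 1 lower, 4 mural markers higher and 1 lower, and 1 cardiomyocyte marker higher and 4 lower. Of the other lists, 1 endothelial, 2 macrophage and leukocyte and 1 mesothelial marker (again Krt8) were higher, and 1 atrial marker was lower. The part of these markers in the results was not tested.

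Relative to 6 of these marker sums, Igfbp7 was higher in all 5 nAAC mice than in any sham mouse. The ratio of means was 2.84 over fibroblast, 2.30 over mural, 3.51 over endothelial, 2.88 over macrophage and leukocyte, 5.10 over cardiomyocyte and 3.01 over mesothelial markers. The mural sum consists mostly of Des, so the ratio over it is largely one to Des. Likewise the fibroblast sum, on average 1210 FPKM in nAAC and 791 in sham, consists mostly of Dcn and Gsn. Dcn averaged 420.8 and 295.8 FPKM and Gsn 516.4 and 375.3 FPKM (log2 FC 0.47 and 0.49). Single fibroblast markers had log2 FCs from -1.80 (Scara5) to 2.49 (Mfap5), with Pi16 at 1.97, beside 2.10 for Igfbp7. Over atrial and erythroid markers, whose sums varied widely, its ranges overlapped. Igfbp6 had groups without overlap only over cardiomyocyte markers (3.38) and macrophage and leukocyte markers (2.02), and Igf1 only over endothelial markers (2.21). Igfbp3 overlapped over all 8 lists.

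**Figure D5:**
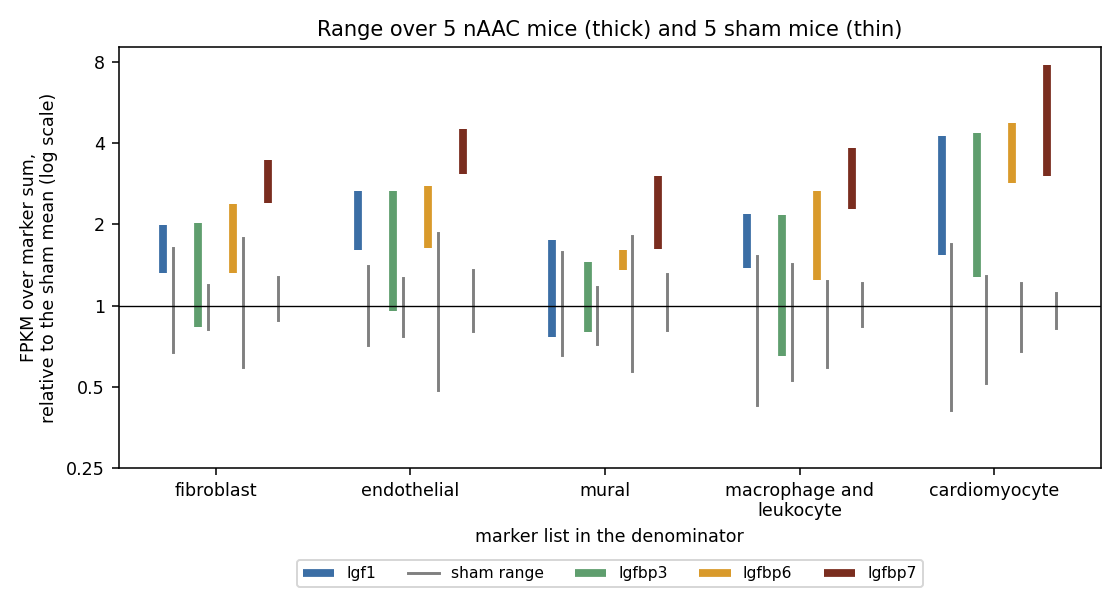
FPKM of Igf1, Igfbp3, Igfbp6 and Igfbp7 divided by the summed FPKM of 5 marker lists, relative to the sham mean, on a log2-spaced axis; thick coloured bars span the 5 nAAC mice and thin grey bars the 5 sham mice. The bars of Igfbp7 do not overlap over any of the 5 lists, while those of Igfbp3 overlap over all 5.

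For the DEGs Igf1, Igfbp6 and Igfbp7, and for Igfbp2, the genes with the most similar profile over the 10 libraries were found. The search covered the 8374 genes averaging 2 or more on the log2 scale. Likeness was measured by the root mean square (RMS) difference of standardised log2 values, in SD. For Igfbp7 these were Serpinf1, a secreted serpin (0.0692), and Txndc5, a protein disulfide isomerase of the endoplasmic reticulum (0.147). Serpinf1 itself measured 41.3 ± 8.82 FPKM in nAAC and 10.2 ± 1.76 FPKM in sham (SD, n = 5). For Igf1 they were Golim4, a Golgi membrane protein gene (0.150), and Rflnb, a regulator of filamin (0.180). For Igfbp6 they were Cystm1 (0.142) and the liver-type phosphofructokinase gene Pfkl (0.156). Igfbp2, which entered the test through the nAAC mice alone, had no close neighbour, with RMS differences of 0.304 for St13 and 0.358 for Tmem181a. These likenesses carry no test, and a difference between the groups is part of each.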

How the data were processed

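LV RNA was extracted with Trizol and sequenced from 5 nAAC and 5 sham mice, grouped by the sample labels, 1 library per mouse. Aligner, counting tool, annotation and strand use are not given in the sources used here. The labels name mm10, and the column layout is that of StringTie gene abundance tables. Deposited coverage is the mean signal per base of a gene, deposited FPKM is scaled by the authors for length and depth, and deposited TPM sums to 1000000 per library. Coordinates equalled those of GENCODE M21 (GRCm38) for 99.4% of shared genes.

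Rows sharing a gene ID, 12 to 21 per library, were summed. limma 3.58.1 (R 4.3.3, empirical Bayes trend, no covariate) was fitted to log2(FPKM + 1) for genes averaging 1 FPKM or more, and was tested on simulated data. Whole reads could not be recovered, so no count model was used and depth is an estimate that rests on the 15.0 to 16.6% of genes at the most frequent FPKM to coverage ratio. Each member was also put through an exact permutation test, two-sided. The limma p values set the difference between groups against the spread between mice, moderated across genes, and the permutation test exchanges group labels. Every member is named. Of other lists, genes at an adjusted p below 0.05 are named, at most 3 in each direction, with genes whose role needs a level. Members and lists were chosen with earlier results of these data known. Promoter windows are from RefSeq (GRCm38), with all 10 members matched. Alternatives covered scaling, unit, pseudocount, filter, covariates, threshold and each mouse left out. The plots used Python 3.11.15 and matplotlib 3.10.9.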

Additional observations from a re-analysis of the deposited data

Results flagged for a closer look

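In 3 of 32 groups of 5 values examined, 1 mouse lay far from the other four of its group, measured as its gap to the nearest mouse over the range of the group (critical value 0.71). Chance gives about 1.6 such groups. Igfbp5 in nAAC had a ratio of 0.83, from the low value of replicate 1. Igfbp6 in nAAC had 0.75, from the low value of replicate 5, which was still above all sham mice. Igf2bp3 in sham had 0.75, from the high value of replicate 2, at levels below 1 FPKM.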

How the results depend on the processing

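Over 20 alternatives, Igf1, Igfbp3, Igfbp6 and Igfbp7 stayed higher in nAAC at an adjusted p below 0.05 (limma), and Igfbp6 and Igfbp7 were DEGs in all 20 and Igf1 in 17. Igfbp4 lost its call under 12 and Igf1r under 3. Igfbp5 passed with TPM alone (log2 FC 0.46) and turned to -0.0086 with the GC and length trend removed. DEGs over all genes numbered 701 as reported, 1140 with TPM, 1121 with a pseudocount of 0.1, 3757 with an adjusted p below 0.05 alone, and 662 to 784 with each mouse left out in turn. Higher genes made up 84.9% of DEGs as reported and 64.3% with median-ratio scaling. With the level of the X-linked transcript Xist as a covariate, 1986 genes had an adjusted p below 0.05, against 3757 as reported. The log2 FC was then smaller for Igfbp7 (1.81), Igfbp6 (1.27), Igfbp3 (0.81) and Igfbp4 (0.30, adjusted p = 0.331, limma). It was larger for Igf1 (1.20), Igf1r (0.62) and Igfbp5 (0.41). The part of sex in the results was not tested. Counts over all tested members include Igfbp2 and Igf2bp2, which entered the test through their higher nAAC values. Over the 7 members averaging 1 FPKM or more in each group, 3 were DEGs and 6 passed as reported, against 4.19% and 25.4% of such genes. With Igfbp2 and Igf2bp2 included, the 4 DEGs became 8 with an adjusted p alone and 4 to 5 with each mouse left out. They became 2 with coverage over estimated depth, which was chosen after seeing the data and gave 534 DEGs over all genes. The 8 members that passed became 5 with the GC and length trend removed, where 3568 of all genes passed. With each mouse left out, 7 to 8 members passed. The share of Igfbp7 was 80.5 to 82.3% in nAAC and 64.8 to 66.3% in sham with each mouse left out, and 68.8% in sham from coverage. Coverage over depth puts low genes below the pseudocount of 1. For the other changes the cause was not tested. No read counts are given in these values, so the smallest detectable difference of low genes such as Igfbp2 and Igf2bp3 is unknown.

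With the replicate number as a block, all genes gave 704 DEGs, with 3426 passing. The members gave 4 DEGs, with 8 passing, Igfbp2 and Igf2bp2 included. Same-numbered mice correlated between -0.32 and 0.19 and 0 of 5 correlated best with their own number, so the numbers were not treated as pairs.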
